A study of Mus musculus with 6 samples.

Results

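Kcnn4, 9 further genes of calcium entry and release, and how their transcript levels stood in RAW264.7 macrophages given drug-loaded nanoparticles, are described here. The members are the table rows whose symbol is Kcnn4, Orai1, Orai2, Stim1, Stim2, P2rx4, P2rx7, Trpv2, Itpr1 or Itpr2. All 10 were found among 22105 rows with an Ensembl gene identifier. RAW264.7 is an established mouse macrophage-like cell line. The study has 6 RNA-seq libraries, 3 from cells that received CM-PEG-PLGA@DOX/R848 particles for 24 h, called nanoparticle libraries below, and 3 from cells treated for 24 h with PBS (phosphate buffered saline). The nanoparticle dose was equivalent to 2 µg/mL DOX (doxorubicin, a topoisomerase II poison), R848 is resiquimod, an agonist of Tlr7, PLGA and PEG are polymers, and CM is not explained by the labels. No library received DOX, R848 or empty particles alone, so the components cannot be told apart. The labels do not say whether replicates were separate cultures, so p-values cover only the variation among these 6 libraries, some or all of which may be technical.

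Calcium enters macrophages through several kinds of channel. When a receptor activates phospholipase C, inositol trisphosphate opens the Itpr channels of the endoplasmic reticulum (ER), the fall in ER calcium is sensed by Stim1 and Stim2, and these open Orai pores in the plasma membrane, a route called store-operated entry. P2rx4 and P2rx7 are opened by extracellular ATP, and Trpv2 belongs to the TRP family of cation channels. Kcnn4 encodes KCa3.1, a potassium channel that opens when calcium binds the calmodulin attached to it, and the outflow of potassium keeps the membrane negative and so sustains calcium entry. Kcnn4 thus carries potassium, the Stim genes encode sensors and the Itpr genes encode release channels, so only 5 of the 10 genes encode channels for calcium at the plasma membrane.

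Values are those the authors deposited. They are taken as FPKM, fragment numbers scaled by transcript length and library size, a unit inferred because the header names none. FPKM sums ran from 451056 to 469220 in nanoparticle libraries and from 457161 to 468500 in PBS libraries, and the number of genes above 0 ran from 15723 to 15989 in nanoparticle libraries and from 12678 to 12872 in PBS libraries. Macrophage markers were present. Summed over 13 markers they came to 1663 to 1794 FPKM in nanoparticle libraries and 3773 to 3936 FPKM in PBS libraries, with 4 markers higher and 7 lower among the 12 tested. B cell, fibroblast, epithelial and endothelial marker lists summed to at most 1.41 FPKM in every library. T cell markers summed to 8.92 to 11.5 FPKM in nanoparticle libraries and 2.26 to 2.92 FPKM in PBS libraries, nearly all of it Lck, while Cd3g and Cd8a were listed at 0 in all 6 libraries. The part of these shifts in the results below was not tested. In bulk RNA, fewer cells that express a gene and less RNA per cell cannot be told apart.

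Promoter sequence was available for 9 of the 10 members, in 12 RefSeq windows (GRCm38.p6) that run from 250 bases before to 50 bases after each start. 3 windows are shown, chosen by the difference in expression and not by sequence: Kcnn4, which had the largest difference between groups, P2rx4, which had the largest difference in the other direction, and Stim1, which had the smallest. CpG dinucleotides are in capitals.
Kcnn4, chr7:24370013-24370312, plus strand: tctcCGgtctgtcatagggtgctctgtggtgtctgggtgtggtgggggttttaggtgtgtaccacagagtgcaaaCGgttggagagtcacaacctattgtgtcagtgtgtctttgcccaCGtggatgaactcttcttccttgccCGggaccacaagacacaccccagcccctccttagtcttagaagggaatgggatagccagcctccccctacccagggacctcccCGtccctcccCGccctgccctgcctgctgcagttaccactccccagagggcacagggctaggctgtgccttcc
P2rx4, chr5:122707294-122707593, plus strand: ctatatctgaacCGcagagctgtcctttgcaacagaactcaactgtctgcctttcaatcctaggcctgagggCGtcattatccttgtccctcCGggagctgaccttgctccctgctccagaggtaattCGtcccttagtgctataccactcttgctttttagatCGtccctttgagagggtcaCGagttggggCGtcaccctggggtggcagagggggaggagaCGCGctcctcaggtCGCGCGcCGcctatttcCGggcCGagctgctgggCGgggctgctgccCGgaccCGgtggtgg
Stim1, chr7:102267569-102267868, plus strand: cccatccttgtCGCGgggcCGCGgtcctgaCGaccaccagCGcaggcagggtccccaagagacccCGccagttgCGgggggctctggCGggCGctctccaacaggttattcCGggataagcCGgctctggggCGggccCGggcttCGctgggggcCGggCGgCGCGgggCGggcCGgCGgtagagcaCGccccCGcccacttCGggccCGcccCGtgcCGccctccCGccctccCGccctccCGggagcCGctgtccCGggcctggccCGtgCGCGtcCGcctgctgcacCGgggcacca
The Kcnn4 window holds 6 CpG, the P2rx4 window 18 and the Stim1 window 38. Over all 32851 windows of the same length the median was 7 CpG, 43.6% held fewer than Kcnn4, 70.3% fewer than P2rx4 and 95.0% fewer than Stim1. The other store-operated genes were on the CpG-rich side as well, with 39 in Stim2, 36 in Orai1 and 24 in Orai2, and Itpr2 had 26. P2rx7 had 8 and 4 CpG in its 2 windows and Trpv2 had 2, 2 and 7 in its 3 windows. On either strand, the AP-1 motif TGANTCA was found in 1 of the 12 member windows (P2rx7) and in 7.81% of all windows. The PU.1 motif GAGGAAGT was found in 3 member windows (1 of P2rx7 and 2 overlapping windows of Trpv2) and in 3.20% of all windows. The TATA motif TATAAA was in 1 Trpv2 window and in 13.6% of all windows.

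Kcnn4 was near the lower end of the group after nanoparticles and at its head under PBS. Its level was 5.499, 5.21 and 4.32 FPKM in the nanoparticle libraries, against 83.5, 80.9 and 79.5 FPKM in the PBS libraries. Every nanoparticle library lay far below every PBS library. Means were 5.01 ± 0.613 FPKM with nanoparticles and 81.3 ± 2.03 FPKM with PBS (SD, n = 3 each), a PBS mean 16.2 times the nanoparticle mean. The difference of mean log2(FPKM + 1), nanoparticle minus PBS, was -3.78, with a within-group SD of 0.110. Among the 10229 genes whose mean reached 1 FPKM, 1 had a more negative difference. Kcnn4 was selected on this FPKM difference between the nanoparticle and PBS libraries, and the other members were chosen by function with results of the same libraries in view, so differences of the members are given as descriptions without a test. Kcnn4 (ENSMUSG00000054342) lies on chromosome 7 at 24370263 to 24386690 (GRCm38, plus strand), and no other annotated gene overlaps it.

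Among the 10 members, the calcium entry channels and the sensors stood higher with nanoparticles, and Kcnn4 and the release channels stood lower. This does not extend to all entry channels, since Orai3, not a member, was lower. After median-ratio scaling the groups of Orai2, Stim1 and Stim2 overlapped. All 10 members passed the 1 FPKM filter, and in all 10 the groups did not overlap, 7 with nanoparticle libraries higher and 3 with nanoparticle libraries lower. The same separation held for 78.8% of all genes tested, 43.7% higher and 35.1% lower, so a count of separated members says little about them in particular. A difference of at least 1 on the log2 scale was reached by P2rx4 on the higher side (11.4% of all genes) and by Kcnn4 on the lower side (6.32% of all genes). The median difference over all genes tested was 0.08, and upper quartile and median-ratio scaling shifted that median by -0.09 and -0.11.

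**Figure D1:**
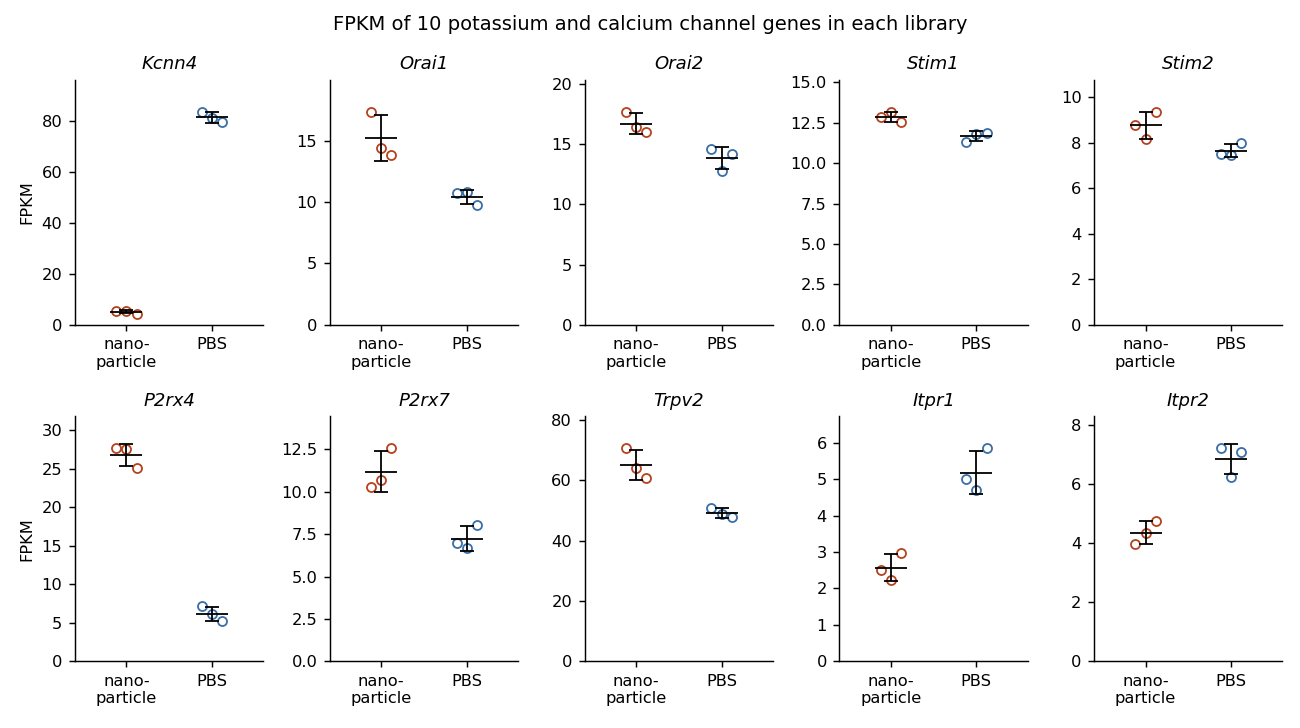
FPKM (linear axis from 0) of each of the 10 genes, nanoparticle libraries on the left and PBS libraries on the right, with open circles for libraries and bars for the mean and SD (n = 3 each). Kcnn4, Itpr1 and Itpr2 sit lower in the nanoparticle libraries and the other 7 sit higher, with no overlap in any panel.

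**Figure D2:**
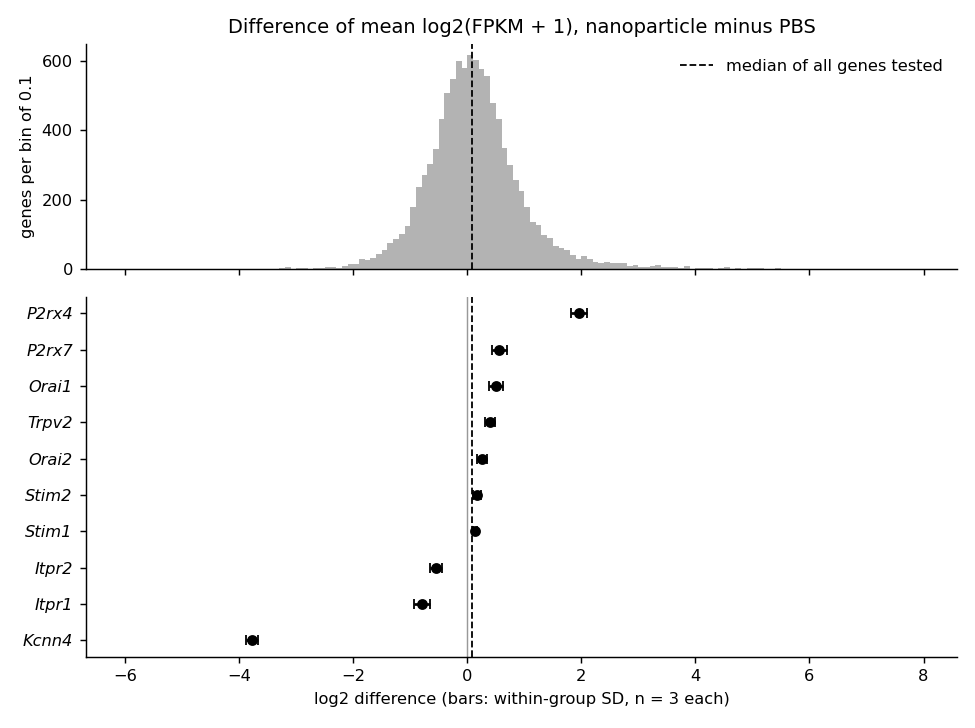
Upper panel, histogram of the difference of mean log2(FPKM + 1), nanoparticle minus PBS, over 10229 genes. Lower panel, the same difference for each of the 10 genes, with bars for the within-group SD. The dashed line is the median of all genes, 0.08. Stim1 at 0.13 and Stim2 at 0.18 lie near it, P2rx4 at 1.95 and Kcnn4 at -3.78 far from it.

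P2rx4, an ATP-gated cation channel found on lysosomes as well as on the cell surface in macrophages, had 27.7, 27.6 and 25.1 FPKM in nanoparticle libraries, against 7.15, 6.16 and 5.29 FPKM in PBS libraries. The lowest nanoparticle value was above the highest PBS value by a wide margin, and the nanoparticle mean was 4.32 times the PBS mean. On the log2 scale the difference was 1.95, higher than in 97.0% of the genes tested. P2rx7, the ATP-gated channel that drives potassium efflux and inflammasome activation, had 10.3, 10.7 and 12.5 FPKM in nanoparticle libraries and 6.95, 6.70 and 8.05 FPKM in PBS libraries. Its groups were separate but closer, with a ratio of 1.55 and a log2 difference of 0.56. P2rx4 was above P2rx7 in all 3 nanoparticle libraries, and in PBS libraries it was below P2rx7 in replicates 2 and 3 and slightly above it in replicate 1. P2rx7 made up 29.5% ± 3.37 of the summed FPKM of P2rx4 and P2rx7 with nanoparticles and 53.9% ± 5.74 with PBS (SD, n = 3 each), and the summed FPKM was 38.0 ± 0.341 with nanoparticles and 13.4 ± 0.619 with PBS.

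Trpv2, a TRP channel known to be abundant in macrophages and to take part in early phagocytosis, had 70.5, 64.0 and 60.6 FPKM in nanoparticle libraries, against 50.8, 48.8 and 47.7 FPKM in PBS libraries. It was the highest of the 10 genes after nanoparticles, at 65.0 ± 5.06 FPKM, and was second to Kcnn4 under PBS, at 49.1 ± 1.58 FPKM (SD, n = 3 each). Its log2 difference was 0.40. The FPKM of Trpv2 was at least 12.3 times that of Kcnn4 in each nanoparticle library, whereas it was 0.599 to 0.608 of Kcnn4 in PBS libraries.

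Of the store-operated pores, Orai1, the main subunit of the calcium release-activated channel, had 17.4, 14.4 and 13.9 FPKM in nanoparticle libraries and 10.7, 10.8 and 9.80 FPKM in PBS libraries. Nanoparticle replicate 1 was the highest of the 6, and the lowest nanoparticle value still exceeded all PBS values. The log2 difference was 0.50 and the ratio of means 1.46. Orai2, which joins Orai1 in mixed channels and lowers their activity, had 17.7, 16.4 and 16.0 FPKM in nanoparticle libraries and 14.6, 12.8 and 14.2 FPKM in PBS libraries. Its log2 difference was 0.25, and its groups overlapped after median-ratio scaling of the libraries, at a difference of 0.13. Orai2 made up 52.4% ± 1.72 of the Orai1 and Orai2 sum with nanoparticles and 57.0% ± 2.55 with PBS (SD, n = 3 each), without overlap between groups.

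The ER sensors differed little. Stim1, the sensor that gates Orai1 after strong store depletion, had 12.8, 13.2 and 12.5 FPKM in nanoparticle libraries and 11.3, 11.8 and 11.9 FPKM in PBS libraries. Stim2, which responds to small falls in ER calcium, had 8.78, 8.17 and 9.36 FPKM in nanoparticle libraries and 7.51, 7.46 and 7.97 FPKM in PBS libraries. Their log2 differences were 0.13 and 0.18, which is 0.05 and 0.10 above the median of all genes. Both pairs of groups overlapped after upper quartile or median-ratio scaling, with Stim1 at 0.03 and 0.01 and Stim2 at 0.08 and 0.06. The share of Stim2 in the Stim1 and Stim2 sum was 40.5% ± 2.24 with nanoparticles and 39.6% ± 0.755 with PBS (SD, n = 3 each), and these shares overlapped.

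The inositol trisphosphate receptors, which release calcium from the ER, were the other members on the lower side. Itpr1 had 2.50, 2.25 and 2.97 FPKM in nanoparticle libraries, against 4.99, 4.69 and 5.84 FPKM in PBS libraries. The PBS mean was 2.01 times the nanoparticle mean, and the log2 difference was -0.79. Itpr2 had 3.96, 4.33 and 4.74 FPKM in nanoparticle libraries and 7.20, 6.24 and 7.08 FPKM in PBS libraries, with a log2 difference of -0.55. All nanoparticle values of both genes were below all PBS values. Itpr2 made up 62.9% ± 2.56 of the Itpr1 and Itpr2 sum with nanoparticles and 57.0% ± 2.13 with PBS (SD, n = 3 each). Itpr3, the third receptor of the family and not a member, fell as well, to 9.01, 8.31 and 8.79 FPKM in nanoparticle libraries against 19.3, 16.8 and 18.8 FPKM in PBS libraries (log2 fold change -0.99, limma adjusted p = 8.9e-07). Over the 3 receptors the summed FPKM was 15.6 ± 0.817 with nanoparticles and 30.3 ± 2.20 with PBS, and Itpr3 was the largest part in both, at 55.8% with nanoparticles and 60.4% with PBS. The sum and shares over 3 receptors were not planned beforehand.

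Orai3, the third pore of the Orai family and not a member, went the opposite way from Orai1 and Orai2. It fell to 16.8, 16.1 and 15.5 FPKM in nanoparticle libraries against 26.7, 27.6 and 26.9 FPKM in PBS libraries (log2 fold change -0.71 ± 0.06 SE, limma adjusted p = 2.0e-06). The sum of the 3 Orai genes ran from 45.4 to 51.8 FPKM in nanoparticle libraries and from 50.9 to 52.0 FPKM in PBS libraries, and these ranges overlapped. The composition did not overlap. Orai3 made up 33.6% ± 1.11 of that sum with nanoparticles and 52.7% ± 1.32 with PBS, Orai1 made up 31.6% ± 1.67 with nanoparticles and 20.3% ± 0.961 with PBS, and Orai2 34.8% ± 0.588 with nanoparticles and 27.0% ± 1.74 with PBS (SD, n = 3 each). These shares over 3 genes were chosen after the values had been seen.

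**Figure D3:**
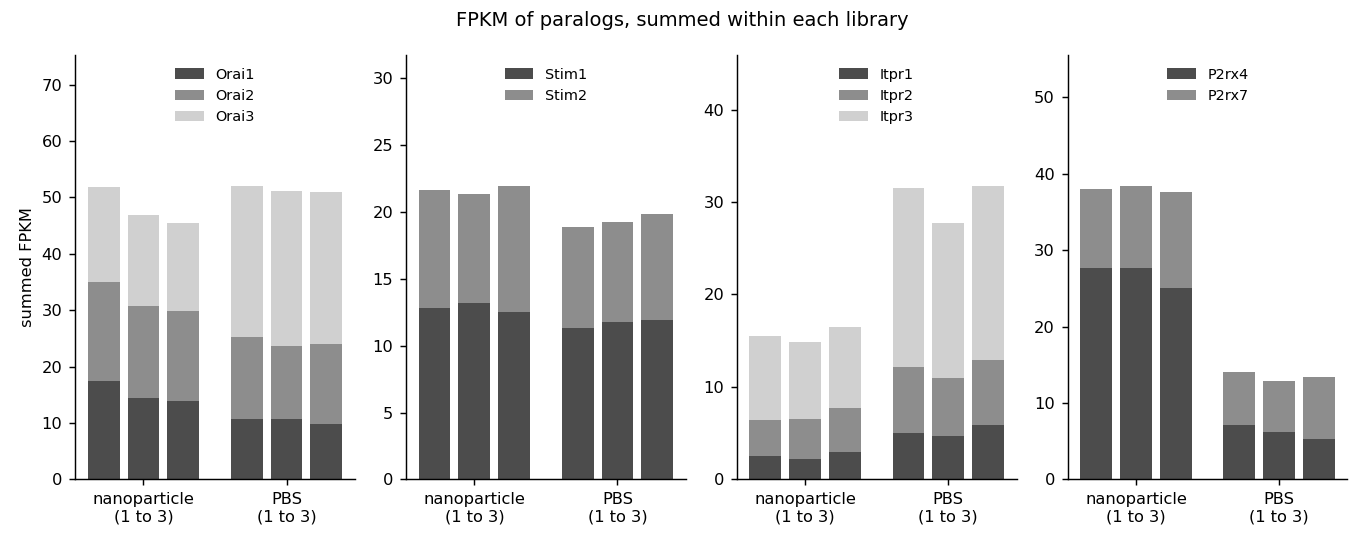
Stacked bars of FPKM for the paralogs of 4 families in each library, nanoparticle replicates 1 to 3 on the left and PBS replicates 1 to 3 on the right, without error bars since each bar is 1 library. The Orai sums overlap between groups while the Orai3 part is smaller with nanoparticles, the Itpr sums are lower with nanoparticles, and the P2rx4 and P2rx7 sum is higher with nanoparticles.

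Taken as FPKM, the values are scaled by length, so levels of different genes can be set in order. With nanoparticles the order of mean FPKM was Trpv2, P2rx4, Orai2, Orai1, Stim1, P2rx7, Stim2, Kcnn4, Itpr2 and Itpr1, and the ranges of Orai2 and Orai1, of Stim1 and P2rx7, and of Kcnn4 and Itpr2 overlapped. With PBS the order was Kcnn4, Trpv2, Orai2, Stim1, Orai1, Stim2, P2rx7, Itpr2, P2rx4 and Itpr1, and from Stim2 to Itpr1 each gene's range overlapped that of the next. P2rx4 and Kcnn4 moved furthest in the order. The SD was 2.54% to 14.2% of the mean with nanoparticles and 2.50% to 15.0% with PBS.

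3 of the members lie close together. P2rx7, P2rx4 and Orai1 sit on the plus strand of chromosome 5 within 387 kb, from 122643911 to 123030456 (GRCm38), and 16.1 kb separate the end of P2rx7 from the start of P2rx4. The table holds 4 other genes in that span, looked up after the members' values had been seen. Rnf34, a ubiquitin ligase, rose to 21.6 ± 0.531 FPKM with nanoparticles against 8.18 ± 0.135 FPKM with PBS (log2 fold change 1.30, limma adjusted p = 3.7e-08). Kdm2b, a histone demethylase, fell to 7.76 ± 0.458 FPKM against 15.2 ± 0.183 FPKM (-0.89, limma adjusted p = 1.1e-06), and Anapc5, an anaphase-promoting complex subunit, fell to 112 ± 1.31 FPKM against 126 ± 2.41 FPKM (-0.16, limma adjusted p = 0.011). Camkk2, a calmodulin-dependent kinase kinase next to P2rx4, had 18.3 ± 0.406 FPKM with nanoparticles and 18.1 ± 0.720 FPKM with PBS and did not pass (limma adjusted p = 0.77). The span thus held genes on both sides of 0. The channel genes were above 0, as were Rnf34 and, by only 0.02, Camkk2. Over all 10229 genes tested, 5573 were above 0 too, and the members were chosen with these results in view. Their shared direction therefore says little about the span.

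**Figure D4:**
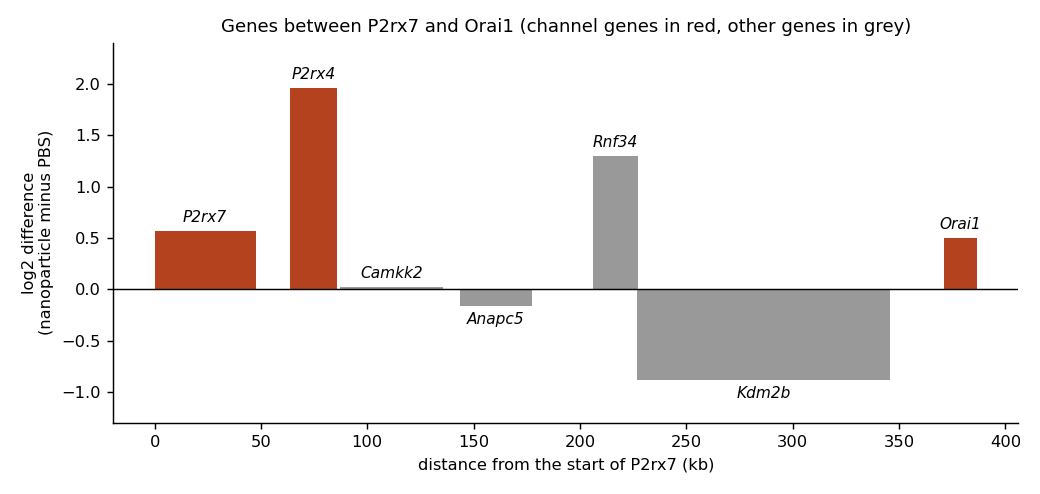
Difference of mean log2(FPKM + 1), nanoparticle minus PBS, of the 7 genes between the start of P2rx7 and the end of Orai1, drawn as bars as wide as each gene against distance in kb. P2rx7 (0.56), P2rx4 (1.95) and Orai1 (0.50) are above 0, as is Rnf34 (1.30), while Kdm2b (-0.89) and Anapc5 (-0.16) are below.

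Among 6306 genes whose mean reached 10 FPKM, the 5 whose profile over the 6 libraries was nearest to that of Kcnn4 were Ccnd1, Plau, Ank, Pid1 and Igfbp4. Likeness was the Euclidean distance between log2(FPKM + 1) profiles, each centred on its own mean, and came to 0.27 for Ccnd1, 0.54 for Plau, 0.82 for Ank, 0.83 for Pid1 and 0.84 for Igfbp4. Ccnd1, cyclin D1, had 13.1, 14.1 and 13.3 FPKM in nanoparticle libraries and 189, 183 and 175 FPKM in PBS libraries. Ank, a membrane protein of ATP and citrate export, had 16.1 ± 0.780 FPKM with nanoparticles and 151 ± 0.214 FPKM with PBS (SD, n = 3 each). The log2 differences were -3.66 for Ccnd1, -3.40 for Plau, -3.16 for Ank, -3.18 for Pid1 and -3.14 for Igfbp4, against -3.78 for Kcnn4. The distance depends on the size of this difference, which a correlation leaves out. Only 3 of the 5 were kept with a pseudocount of 0.1 and 0 with a correlation as the measure, so the set depends on the measure used.

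Limma on log2(FPKM + 1) called 7896 of 10229 genes (77.2%) at an adjusted p under 0.05, 42.7% higher and 34.5% lower in nanoparticle libraries. The balance turned with the scaling, with 3809 genes higher and 4082 lower after upper quartile scaling and 3690 higher and 4197 lower after median-ratio scaling. 9 lists of other potassium and calcium genes, none of them members, were read against these shares.

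Potassium and proton channels other than Kcnn4 were mostly at low levels, and 5 of the 30 listed passed the filter. Of these 4 fell and 0 rose, and the median log2 fold change was -0.62. Kcnab2, a potassium channel beta subunit, fell to 19.4, 16.8 and 16.7 FPKM with nanoparticles against 58.0, 56.1 and 53.2 FPKM with PBS (log2 fold change -1.61 ± 0.07 SE, limma adjusted p = 2.9e-08). Kcnk13, a two-pore domain leak channel, fell to 5.33 ± 0.204 FPKM against 10.9 ± 0.780 FPKM (-0.91). The inward rectifier gene Kcnj2 fell too (-0.62), and the lysosomal channel gene Tmem175 was lower by -0.26, a call lost in 4 alternatives (limma adjusted p = 0.051 to 0.084, with no filter on low values or without nanoparticle replicate 1, nanoparticle replicate 2 or PBS replicate 3). Kcnk6 did not pass. The nearest relatives of Kcnn4 were below the filter, with Kcnn1 at 0.102 to 0.230 FPKM in nanoparticle libraries and 0.442 to 0.767 FPKM in PBS libraries. Kcnn2 and Kcnn3 were at most 0.0722 FPKM in every library, and Kcnma1, the large-conductance calcium-activated channel, at most 0.0439.

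Of 13 tested regulators of the KCNN4 channel, 5 rose and 4 fell, and with the replicate number as a block 5 were higher and 6 lower. Calm2 and Calm3, which encode calmodulin, the channel's calcium sensor, moved in opposite directions. Calm2 rose to 271 ± 14.2 FPKM with nanoparticles against 173 ± 7.65 FPKM with PBS (log2 fold change 0.65), and Calm3 fell to 84.7 ± 4.52 FPKM against 134 ± 5.73 FPKM (-0.66). Phpt1, a histidine phosphatase that inhibits the channel, fell (-0.37), and Pgam5, a phosphatase that acts on the channel activator NME2, rose (0.56).

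Regulators of store-operated entry moved both ways, 5 higher and 7 lower of 15 tested (median -0.14). Grina, an ER and Golgi protein of the TMBIM family, rose to 201 ± 21.3 FPKM with nanoparticles against 33.3 ± 2.02 FPKM with PBS (log2 fold change 2.56 ± 0.08 SE, limma adjusted p = 2.9e-09). Esyt1, a tether between the ER and the plasma membrane, rose to 78.5 ± 4.09 FPKM against 31.4 ± 0.856 FPKM (1.29). Saraf, which inactivates store-operated entry and is named here after its values were seen, rose to 56.8, 57.4 and 56.2 FPKM against 26.8, 25.2 and 24.5 FPKM (1.13). Slc35g1, a Stim1 partner, fell (-0.45), and Orai3 was the other gene named on the lower side.

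Among calcium pumps and ER calcium buffers 2 of 8 rose and 4 fell (median -0.24). Atp2a3, an ER calcium pump of blood cells, fell to 10.3 ± 0.277 FPKM with nanoparticles against 16.8 ± 0.616 FPKM with PBS (log2 fold change -0.66), and Atp2c1, the Golgi pump, fell to 13.6 ± 1.13 FPKM against 21.8 ± 1.26 FPKM (-0.64). Atp2a2, the most abundant ER pump gene here, had 113 ± 3.89 FPKM with nanoparticles and 121 ± 2.92 FPKM with PBS and did not pass (limma adjusted p = 0.13). The ER chaperones Hspa5 and Calr rose (0.63 and 0.33).

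Genes of inositol trisphosphate signalling were divided, 10 higher and 12 lower of 25 tested (median -0.20). Plcb4, a phospholipase C, fell to 6.31, 7.36 and 5.54 FPKM with nanoparticles against 22.4, 21.0 and 30.5 FPKM with PBS (log2 fold change -1.78 ± 0.14 SE, limma adjusted p = 1.3e-06). Gnaq, the G protein subunit that activates such enzymes, fell to 4.48 ± 0.214 FPKM against 15.0 ± 0.775 FPKM (-1.55). Plcd3 and Itprip, which encodes a protein that binds the receptors, rose (0.87 and 0.70).

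Of 14 tested purinergic receptors and nucleotide handling genes 4 rose and 5 fell (median 0.04). P2ry6, the receptor for UDP that signals through Gnaq, fell to 2.76, 2.66 and 2.68 FPKM with nanoparticles against 30.0, 28.4 and 25.7 FPKM with PBS (log2 fold change -2.97 ± 0.07 SE, limma adjusted p = 7.1e-10). Slc29a1, a nucleoside transporter, fell to 24.6 ± 2.12 FPKM against 64.2 ± 3.26 FPKM (-1.35), and Lrrc8a, a volume-regulated anion channel subunit, rose to 6.87 ± 0.120 FPKM against 3.44 ± 0.366 FPKM (0.83). The other P2X genes, P2rx1, P2rx2, P2rx3, P2rx5 and P2rx6, were at most 0.381 FPKM in every library, so P2rx4 and P2rx7 held nearly all P2X signal.

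TRP, PIEZO and endolysosomal channel genes were evenly divided, 5 higher and 5 lower of 12 tested (median -0.01). Mcoln1, the lysosomal calcium channel TRPML1, rose to 46.8, 41.7 and 39.5 FPKM with nanoparticles against 17.5, 17.0 and 16.8 FPKM with PBS (log2 fold change 1.27 ± 0.07 SE, limma adjusted p = 1.3e-07). Tmem63b, a mechanosensitive channel, rose to 15.3 ± 1.09 FPKM against 5.15 ± 0.386 FPKM (1.41). Tpcn1 and Tpcn2, two-pore channels of endosomes and lysosomes, fell (-0.67 and -0.36). Trpv2 had no expressed close relative, since Trpv1, Trpv3 and Trpv4 were at most 0.183 FPKM and Trpv5 and Trpv6 were listed at 0 in all libraries.

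All 18 genes of mitochondrial calcium uptake passed the filter, and 7 rose and 9 fell (median -0.01). Vdac1, the outer membrane channel, fell to 79.3 ± 2.29 FPKM with nanoparticles against 172 ± 6.66 FPKM with PBS (log2 fold change -1.11, limma adjusted p = 4.9e-08), and Ghitm, an inner membrane protein also known as TMBIM5, rose to 234 ± 5.22 FPKM against 114 ± 2.96 FPKM (1.03, limma adjusted p = 5.3e-08). Slc25a25, a calcium-dependent carrier, rose (0.49) and its relative Slc25a23 fell (-0.45).

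Calcineurin, NFAT and CaM kinase genes, which act on the calcium signal, were lower in 12 of 21 tested and higher in 3 (median -0.29). Nfatc1, a transcription factor activated by calcineurin, fell to 8.84, 9.94 and 9.68 FPKM with nanoparticles against 28.0, 26.8 and 28.0 FPKM with PBS (log2 fold change -1.45 ± 0.06 SE, limma adjusted p = 3.1e-08). Camk1, a calmodulin-dependent kinase, fell to 21.3 ± 1.63 FPKM against 68.7 ± 2.79 FPKM (-1.65). Rcan1, a calcineurin inhibitor and known NFAT target, rose to 46.9 ± 0.723 FPKM against 11.8 ± 1.03 FPKM (1.91 ± 0.07 SE, limma adjusted p = 6.9e-09), and Homer1, a scaffold that binds Itpr channels, rose to 15.3 ± 1.63 FPKM against 4.65 ± 0.742 FPKM (1.53).

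**Figure D5:**
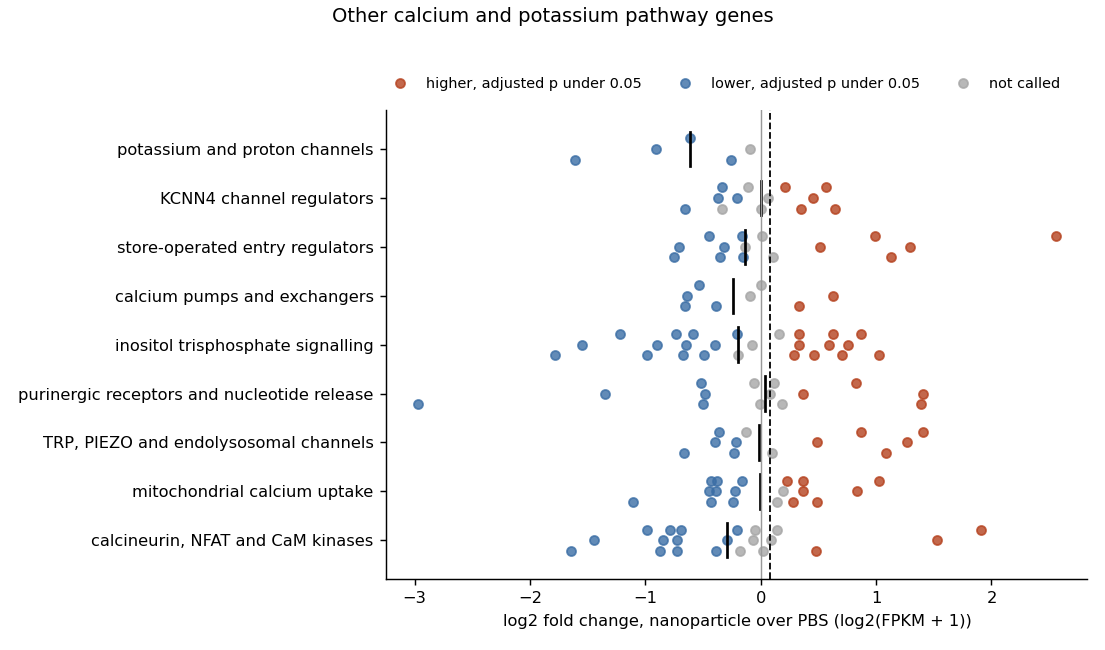
Log2 fold change on the log2(FPKM + 1) scale, nanoparticle over PBS, of each tested gene in 9 lists, 1 point per gene, red where higher and blue where lower at a limma adjusted p under 0.05 and grey where not called. Short black lines are list medians and the dashed line is the median of all genes, 0.08. Medians run from -0.62 for potassium and proton channels to 0.04 for purinergic genes.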

How the data were processed

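RNA was extracted with TRIzol and made into mRNA libraries by a BGI protocol, per the labels' protocols. The authors deposited 1 table with 1 FPKM column per library. Its header names no unit, and FPKM was inferred from fractional values whose sums differ between libraries. The submitters' processing notes list STAR, featureCounts, GRCm38 and mm10 with no version. Depth was not given, and 30.4% to 35.8% of the low values of single-transcript genes lay within 0.05 of a whole fragment at the best step, so reads were not recovered and no counting interval is given. Of 22614 rows, 509 without Ensembl gene identifiers (0.427% to 0.497% of FPKM) were left out. Of these, 498 carried MSTRG identifiers, whose origin was not traced, so the listed tools may not fully describe how the values were made.

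Titles gave the groups. Columns were matched by library name, and that of PBS replicate 1 carries an added suffix. Coordinates are from GENCODE M21 (GRCm38). Limma 3.58.1 (R 4.3.3) with an intensity trend tested log2(FPKM + 1) over the 10229 genes whose mean reached 1 FPKM, treatment the only term, two-sided, Benjamini-Hochberg adjusted, threshold 0.05. Fold changes are on this scale, which understates low genes. The test was checked on simulated data with independent noise and changes in few genes, whereas most genes were called here. That check therefore does not cover scaling between libraries, pairing or changes this widespread. Members overlap other annotated genes by at most 1.99% of their exonic bases, and none of those overlapping genes has a value here.

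The members and lists were chosen with earlier results of these data known. In each list the text names up to 2 genes per direction with the largest fold change among those called whose mean reached 5 FPKM. It also names genes outside that rule, among them Itpr3, Kcnj2, Tmem175, Kcnk6, Atp2a2 and Saraf. Some listed genes are not reported here. Deviations from the group means correlated at 0.13, 0.11 and 0.35 over genes for same-numbered libraries. Nanoparticle replicate 1 with PBS replicate 2 also reached 0.13, and the other 5 unlike pairs ran from -0.26 to 0.01. These values do not settle whether equal numbers mark pairs. The p-values printed here are from the fit without pairing. A fit with a replicate block was run. Other pseudocounts, filters and scalings, no trend and each library left out were also tried. Tables used Python 3.11.15 and pandas 2.3.3, plots matplotlib 3.10.9.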

Additional observations from a re-analysis of the deposited data

How the results depend on the processing

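7 members had the higher mean in nanoparticle libraries under every pseudocount, scaling and left-out library tried. Median-ratio scaling shifted the median of all genes by -0.11, and the groups overlapped for Stim1 and Stim2 under both scalings and for Orai2 under median-ratio scaling. The difference of Kcnn4 ran from -3.84 to -3.69 without single libraries and was -4.00 with a pseudocount of 0.1 and -2.60 with 10. With a pseudocount of 10 the difference was 1.18 for P2rx4, -0.27 for Itpr1 and -0.23 for Itpr2. Without nanoparticle replicate 3 the Stim2 share difference changed sign, and without single libraries it ran from -0.15 to 2.10 points. With the replicate block 4609 genes were higher and 3742 lower, and no gene named by the rule changed its call under any alternative.

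Without a filter, 6244 of 18008 genes were called higher over the whole table. In that fit, 5 of 27 potassium channel genes, 4 of 18 calcium pump genes and 10 of 32 purinergic genes were called higher. TRP and related channels had 8 of 29 higher and calcineurin genes 5 of 30. With a filter at 5 FPKM, 1 of 8 purinergic genes was higher and 3 of 8 TRP and related genes were lower. Over the whole table that filter gave 3449 higher and 2933 lower of 8119. Without single libraries, 3 to 4 of 12 TRP and related genes were lower. The count was 3 without PBS replicate 1 or PBS replicate 3, where 3286 of 10262 and 3257 of 10259 genes were lower over the whole table. Of the 5 genes most like Kcnn4, 3 were kept with a pseudocount of 0.1 and 0 with Pearson correlation. The correlation, unlike the distance, takes no account of the size of a difference. The cause of the change with the pseudocount was not tested. Depth is unknown, which limits what can be said of genes under 1 FPKM.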
